A study of Mus musculus with 10 samples.

Results

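Long noncoding RNAs that stay in the nucleus were followed across mouse breast tumors. The set holds 5 of the 31053 genes counted, namely Malat1, Neat1, Lncpint, Kcnq1ot1 and Meg3. They were taken by gene symbol, and their unique molecular identifiers (UMIs, tags that mark single captured RNA molecules) were summed over kept cells and over near-empty barcodes of each library. The 5 genes held 381508 of the UMIs in 65298 kept cells. They were chosen with their levels by library, batch, cell class, depth and mitochondrial share already known, so those levels are given as a description without a test. Only the contrast between genotypes was given a p-value.

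The tumors were grown from E0771 cells, a mammary carcinoma line of C57BL/6 origin, injected into the mammary fat pad of female mice aged 16 weeks and harvested on day 21. One group was EC-AGO1-KO, in which a Cre driven by VE-Cadherin (Cdh5), a gene of endothelial cells, deletes floxed AGO1. The other group was WT littermates, and which alleles these carry is not stated in the sources used here. Both groups carried the same injected tumor cells with their own intact Ago1, so the deletion is limited to cells of the host. Each group had 5 libraries of dissociated whole tumor, with 5 WT and 7 KO tumors in all. The libraries KO 2+3 and KO 5+6 each pooled 2 small tumors. The libraries came in 2 batches, the first with a single library of each genotype and the second with WT 1, 3, 4 and 5 and KO 1, 2+3, 4 and 5+6. The batches were sequenced on different NovaSeq models. The labels do not say whether other steps differed between the batches.

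Malat1 gathers in nuclear speckles, bodies rich in splicing factors, and Neat1 is the RNA scaffold around which paraspeckles form. Kcnq1ot1 and Meg3 are imprinted RNAs, the former read from the paternal copy of the Kcnq1 domain and the latter from the maternal copy of the Dlk1-Meg3 domain. Lncpint is a p53-induced RNA that has been linked to Polycomb repression. Because these RNAs are retained in the nucleus, their share in a droplet library is often read beside the mitochondrial share when damaged or stripped cells are looked for.

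The ends of these transcripts are shown because the assay primes on runs of A and reads the 3′ end. The last 60 bases of each reference transcript, 5′ to 3′ as RNA-sense DNA letters from GENCODE vM21 on GRCm38, follow, with AATAAA, the hexamer that directs poly(A) addition, in capitals where it is present.
Malat1, chr19:5795690-5795749, minus strand: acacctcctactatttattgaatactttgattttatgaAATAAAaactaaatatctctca
Neat1 short form, chr19:5842307-5842366, minus strand: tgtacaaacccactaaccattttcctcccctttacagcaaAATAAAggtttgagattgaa
Neat1 long form, chr19:5824708-5824767, minus strand: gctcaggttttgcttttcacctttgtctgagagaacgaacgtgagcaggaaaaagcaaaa
Lncpint, chr6:31165523-31165582, minus strand: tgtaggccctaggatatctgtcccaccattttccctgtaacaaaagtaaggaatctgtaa
Kcnq1ot1, chr7:143203458-143203517, minus strand: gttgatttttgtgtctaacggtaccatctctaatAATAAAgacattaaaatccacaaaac
Meg3, chr12:109571667-109571726, plus strand: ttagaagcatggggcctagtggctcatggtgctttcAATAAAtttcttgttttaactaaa
The hexamer was searched on the transcribed strand only, and 27.2% of 141515 transcripts of at least 60 bases hold it in their last 60. Lncpint has 16 annotated transcripts and Meg3 has 11, and only the longest of each is shown. The Lncpint end shown lies inside the gene, and its other ends are not shown. Neat1 is shown with both of its main forms. The short form of 3004 bases ends in the hexamer and is the polyadenylated one. The long form of 20771 bases, the one that builds paraspeckles, has no such hexamer in its last 60 bases, and a triple helix is known to protect its end. The gene counts do not separate the forms.

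Internal runs of A can prime as well, so the longest run in each of 2 members is shown with 25 bases on either side, the run in capitals.
Malat1 run, chr19:5795963-5796024, minus strand: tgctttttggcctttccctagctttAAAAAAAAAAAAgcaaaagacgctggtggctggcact
Kcnq1ot1 run, chr7:143226920-143227010, minus strand: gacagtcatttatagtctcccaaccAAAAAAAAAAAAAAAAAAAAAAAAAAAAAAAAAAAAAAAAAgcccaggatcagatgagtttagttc
The Malat1 run has 12 As and starts at base 6674 of 6983. It is the tract at which the mature RNA is known to end, next to the tRNA-like mascRNA. The unspliced Kcnq1ot1 transcript of 93.1 kb has 30 runs of 8 or more As, the longest of 41. The Meg3 transcript shown, of 14548 bases, has 7 such runs, the longest of 16, while both forms of Neat1 and the Lncpint transcript of 1676 bases have none. Runs of this length occur in 13.8% of the transcripts. Which site a UMI came from cannot be read from gene counts.

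In the annotation of the same build, Malat1 (ENSMUSG00000092341) spans chr19:5795690-5802672 and Neat1 (ENSMUSG00000092274) spans chr19:5824708-5845478, both lincRNA genes on the minus strand with 22.0 kb between them. Lncpint (ENSMUSG00000044471) is a lincRNA gene at chr6:31082565-31220488, minus strand. Meg3 (ENSMUSG00000021268) is one at chr12:109541001-109571726, plus strand. Kcnq1ot1 (ENSMUSG00000101609) is annotated as antisense at chr7:143203458-143296549, minus strand, within Kcnq1. The sources used here do not state how the counting handled strand or introns, so UMIs of Kcnq1ot1 and of Kcnq1 introns may not be fully apart. The same holds for what the counts of spliced members include, and Lncpint spans 138 kb with a longest transcript of 1676 bases.

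The libraries held 8323896 to 10591577 UMIs in all barcodes. Batch 1 gave 968 and 1194 kept cells with median UMIs of 3862 and 4049, and batch 2 gave 6212 to 10190 cells with medians of 595 to 1142. The mitochondrial share of UMIs in kept cells was 2.88 and 2.91% in batch 1 and 0.213 to 0.707% in batch 2. Ribosomal protein mRNAs took 18.2 and 19.8% against 2.28 to 3.59%, and the actin mRNA Actb took 1.99 and 2.27% against 8.77 to 16.97%. The ribosomal list was taken by names that start with Rpl or Rps, and may include genes that are not ribosomal proteins. Ago1 had 27 to 52 UMIs per library, at 4.32 to 7.06 CPM (UMIs per 1000000 UMIs) in WT and 4.45 to 6.92 in KO, with 0 UMIs in endothelial-like cells of every library, so it does not check the genotype labels. The 45 pairs of libraries shared 0 to 28 barcodes of kept cells, at most 0.503% of the smaller library. Cells were clustered without the 5 members, Actb, Ago1 and mitochondrial genes, and 55699 were tumor-like, 2237 myeloid-like, 1250 T-like, 561 stromal-like (fibroblast or pericyte markers), 347 epithelial-like, 125 endothelial-like, 66 B-like and 54 dendritic-like. The remaining 4959 stayed unnamed.

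Malat1 was high in batch 1 and low in batch 2. In kept cells of batch 1, WT had 5757 CPM and KO 6414 CPM. In batch 2 Malat1 stood at 1306, 869, 1035 and 1046 CPM in WT 1, 3, 4 and 5, and at 713, 838, 1101 and 832 CPM in KO 1, 2+3, 4 and 5+6. The batches did not overlap, and the mean of batch 1 was 6.29 times that of batch 2.

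Neat1 lay the other way round, although its gene is the neighbor of Malat1. It had 740 and 869 CPM in WT and KO of batch 1. WT 1, 3, 4 and 5 of batch 2 had 2882, 2736, 2171 and 3576 CPM, and KO 1, 2+3, 4 and 5+6 had 3223, 2741, 3930 and 4248 CPM. The mean of batch 2 was 3.96 times that of batch 1, again without overlap.

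Lncpint followed Neat1. It had 260 and 232 CPM in WT and KO of batch 1. In batch 2 it had 1148, 798, 979 and 888 CPM in WT 1, 3, 4 and 5 and 668, 601, 951 and 733 CPM in KO 1, 2+3, 4 and 5+6. The batch 2 mean was 3.44 times the batch 1 mean.

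Summed over all kept cells, the imprinted RNAs differed less between the batches. Kcnq1ot1 had 89.4 and 97.3 CPM in batch 1 and 73.3 to 126 CPM in batch 2, so the batches overlapped and their means differed by a factor of 1.03. Meg3 had 3.12 and 2.998 CPM in batch 1, from 23 and 20 UMIs, and 2.16 to 6.27 CPM in batch 2.

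**Figure D1:**
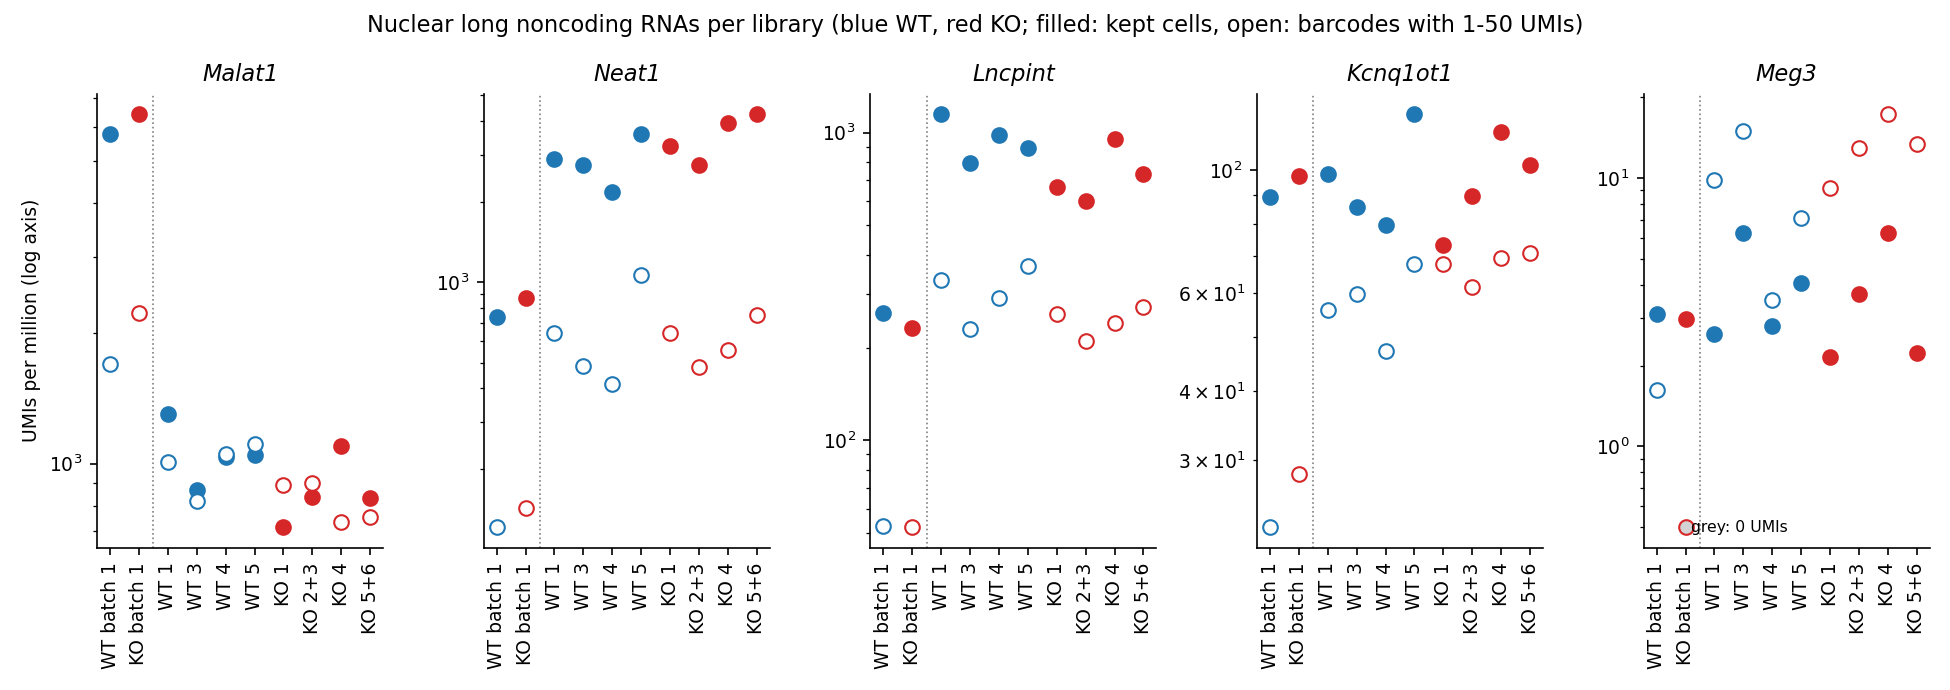
Each panel plots 1 of the 5 RNAs in CPM on a log axis against the 10 libraries, with batch 1 left of the dotted line, WT in blue, KO in red, filled points for kept cells and open points for barcodes with 1 to 50 UMIs. Malat1 stands at 5757 and 6414 in batch 1 and at no more than 1306 in batch 2, Neat1 and Lncpint lie higher in batch 2, and the grey point marks 0 UMIs of Meg3.

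The nuclear RNAs therefore did not move as a unit. Their summed share of UMIs was 0.685 and 0.762% in batch 1 and 0.427 to 0.610% in batch 2, a smaller difference than that of Malat1 or Neat1 alone. Malat1 made up 84.1 and 84.2% of their UMIs in batch 1 and 14.1 to 24.3% in batch 2. Neat1 made up 10.8 and 11.4% against 50.9 to 71.8%. These are shares of UMIs and are not scaled by transcript length.

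The order of the batches was the same with Actb set aside. With Actb left out of the totals, Malat1 had 5874 and 6563 CPM in batch 1 and 823 to 1431 CPM in batch 2. Neat1 had 755 and 889 against 2615 to 4808 CPM by the same count. The part of the ribosomal and mitochondrial shares, which moved with Malat1, and of depth was not tested, and batch cannot be told apart from the sequencing platform or from any step done with it.

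Other noncoding RNAs split between the same patterns. Gm42418, listed with the nuclear RNAs, overlaps ribosomal RNA sequence, so its UMIs may come from ribosomal RNA. It had 9110 and 9281 CPM in batch 1 and 944 to 2390 CPM in batch 2, in the direction of Malat1. Tug1, a nuclear lincRNA, had 146 and 151 CPM against 395 to 567 CPM, in the direction of Neat1. Among RNAs of the cytoplasm or of snoRNA hosts, 2900097C17Rik had 147 and 150 CPM against 297 to 533 CPM, and Snhg6 had 87.1 and 99.8 CPM against 33.0 to 70.7 CPM. Of the 4 cytoplasmic or snoRNA-host RNAs measured, 2900097C17Rik alone was higher in batch 2, and the rest were higher in batch 1. The part of the place of an RNA in the cell was not tested.

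Near-empty barcodes with 1 to 50 UMIs, which carry free RNA of the suspension, were set beside kept cells. In batch 1 all of the 4 abundant members had a higher CPM in cells. Malat1 in cells was 2.89 and 3.38 times its level in near-empty barcodes, Neat1 6.10 and 6.11 times, Lncpint 4.45 and 4.92 times, and Kcnq1ot1 3.44 and 3.93 times. These are ratios of CPM over unlike totals. In batch 1 the list of 11 other nuclear noncoding RNAs measured, led by Gm42418, took 33.6 and 38.3% of near-empty UMIs. Gm42418 overlaps ribosomal RNA sequence, so this share cannot be read as one of nuclear RNA. In cells the list took 0.980 and 0.965%. Mitochondrial mRNAs took 14.8 and 12.9% against 2.91 and 2.88%. The part of these shares in the ratios was not tested.

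In batch 2 Malat1 in cells was 0.799 to 1.499 times its level in near-empty barcodes, where it had 735 to 1112 CPM. The ranges of cells and of near-empty barcodes overlapped for Malat1 in batch 2. Neat1 kept a ratio of 3.35 to 7.05 and Lncpint one of 2.42 to 3.94, and that of Kcnq1ot1 was 1.08 to 1.86. Meg3 was lower in cells than in near-empty barcodes in all 8 libraries of batch 2, at 0.165 to 0.803 times. Near-empty barcodes of batch 1 had 2 and 0 UMIs of Meg3, too few for a ratio.

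The batch difference was present in the free RNA as well. The mean of Malat1 in near-empty barcodes was 2.16 times higher in batch 1, a smaller factor than in cells. Neat1, Lncpint and Kcnq1ot1 in near-empty barcodes were 4.79, 5.24 and 2.45 times higher in batch 2. The CPM of Kcnq1ot1 thus differed between the batches in near-empty barcodes and not in the sum over kept cells. The totals were unlike there too. The list led by Gm42418, which overlaps ribosomal RNA sequence, took 33.6 and 38.3% of near-empty UMIs in batch 1 and 1.28 to 7.21% in batch 2. Mitochondrial mRNAs took 14.8 and 12.9% against 0.635 to 3.26%. Such shares lower the CPM of all other genes, and their part in these factors was not tested.

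Barcodes were then sorted into tiers by their number of UMIs, each tier without its lower and with its upper limit, and tiers of at least 20 barcodes are given. In batch 1 Malat1 had 1702 and 2223 CPM in barcodes of 1 to 50 UMIs and 12692.5 and 15195 CPM in those of 1000 to 2000 UMIs. Above 5000 UMIs, where most tumor-like cells of batch 1 lie, it had 4875 and 4986 CPM. Malat1 in batch 1 was thus highest at middle depth in both libraries.

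In batch 2 Malat1 was highest in the tier of 50 to 200 UMIs in 7 of 8 libraries, at 1631 to 2072 CPM. The exception, WT 1, had 1735 CPM there and 1796 CPM at 2000 to 5000 UMIs. The lowest tier was 500 to 1000 UMIs in 4 libraries, 1000 to 2000 in 2 and 1 to 50 in 2. The whole tier of 1 to 50 UMIs, the near-empty barcodes, had 735 to 1112 CPM, and the whole tier of 50 to 200 UMIs had 1631 to 2072 CPM. Levels close to the limit of 50 UMIs were not looked at.

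Neat1 climbed with depth in batch 2. It had 415 to 1066 CPM at 1 to 50 UMIs and 2403 to 4825 CPM at 2000 to 5000 UMIs. Its lowest tier was 1 to 50 UMIs in 7 of 8 libraries, and it was higher in each deeper tier without a break in 4 of 8. In batch 1 it was highest above 5000 UMIs in both libraries, at 792 and 925 CPM.

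Lncpint leveled off in place of climbing. In batch 2 it was lowest at 1 to 50 UMIs in 7 of 8 libraries, and its highest tier was 1000 to 2000 UMIs in 5, 2000 to 5000 in 2 and 200 to 500 in 1. Kcnq1ot1 in batch 2 was lowest at 50 to 200 UMIs in 6 of 8 libraries and highest at 2000 to 5000 in 5. Meg3 in batch 2 was highest at 50 to 200 UMIs in 5 of 8 libraries, at 200 to 500 in 2 and at 1 to 50 in 1. A kept cell needs at least 200 genes, so barcodes below 200 UMIs are not kept cells. The stromal-like cells of batch 2 had median UMIs of 334.5 to 416.

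**Figure D2:**
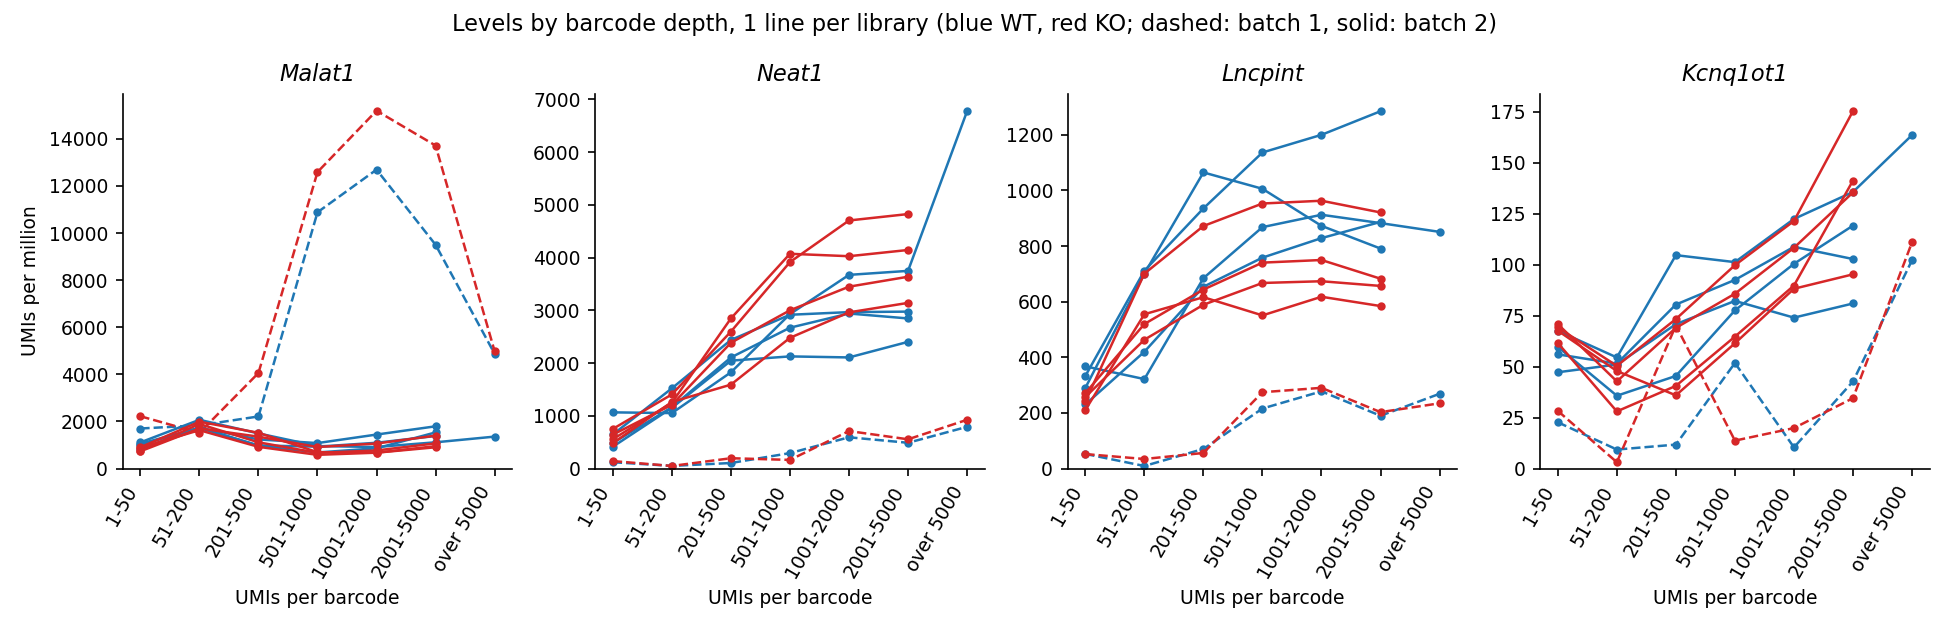
The 4 panels plot Malat1, Neat1, Lncpint and Kcnq1ot1 in CPM against tiers of UMIs per barcode, 1 line per library, dashed for batch 1, solid for batch 2, blue for WT and red for KO, tiers of fewer than 20 barcodes left out. The dashed lines of Malat1 peak at 12692.5 and 15195 in the tier of 1000 to 2000 UMIs, while the solid lines of Neat1 start at 415 to 1066 and reach 2403 to 4825 at 2000 to 5000 UMIs.

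Depth and cell class are entangled in these tiers, so tumor-like cells were taken alone. In tumor-like cells of batch 2 Malat1 had 549 to 1074 CPM at 500 to 1000 UMIs and 768 to 1738 CPM at 2000 to 5000 UMIs, and 2000 to 5000 was the highest tier in 7 of 8 libraries. Neat1 was highest in that tier in 7 of 8 libraries as well, at 2506 to 4921 CPM, and Kcnq1ot1 in 6 of 8, at 86.6 to 171 CPM. The highest and lowest tiers of Lncpint were spread over the range. The tier of 2000 to 5000 UMIs was thus the highest for these 3 RNAs in most libraries, which the tiers of all barcodes did not show for Malat1. Malat1, Neat1 and Kcnq1ot1 rose through all tiers in 3, 5 and 5 of 8 libraries. Clusters of tumor-like cells also differed in depth. The shallowest, with median UMIs of 430, had a median Malat1 of 1207 CPM, and the deepest, with 1413.5, had 1160 CPM. The part of the clusters was not tested.

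Malat1 and mitochondrial mRNA went together in batch 2. Among tumor-like cells, Malat1 was lowest in those with less than 0.5% mitochondrial UMIs in all 8 libraries, at 536 to 1138 CPM. It was 713 to 1533 CPM at 0.5 to 1%, 860 to 3117 CPM at 1 to 2% and 808 to 4067 CPM at 2 to 5%. It was higher at each step in 7 of 8 libraries, and in KO 5+6 it was 1115 CPM at 1 to 2% and 808 CPM at 2 to 5%.

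The WT 4 library, whose mitochondrial share of 0.213% was the lowest of all, had the steepest order. Its Malat1 was 903 CPM in 7663 tumor-like cells below 0.5%, 1533 CPM in 803 cells, 3117 CPM in 204 cells and 4067 CPM in 35 cells at 2 to 5%. Without WT 4, the range at 2 to 5% was 808 to 1879 CPM. The share of a count that is mitochondrial and the share that is Malat1 have a common total, and their common order was not tested.

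The other members rose at each step in at most 1 of 8 libraries. Neat1 in tumor-like cells of batch 2 had 2187 to 4272 CPM below 0.5% and 1930 to 3935 CPM at 2 to 5%, and the latter was its lowest bin in 5 of 8 libraries. Lncpint had 533 to 1127 CPM and 495 to 1124 CPM in those bins. It was highest between them, at 0.5 to 1% in 4 libraries and at 1 to 2% in 4. Its medians over libraries were 756, 910, 922 and 817 CPM from the lowest bin up. Kcnq1ot1 was lowest below 0.5% in 6 of 8 libraries, but it was higher at every step in only 1. Its medians were 83.0, 113, 123 and 91.8 CPM. Both thus rose up to 2% and fell in the bin of 2 to 5%, which held as few as 35 cells in a library.

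**Figure D3:**
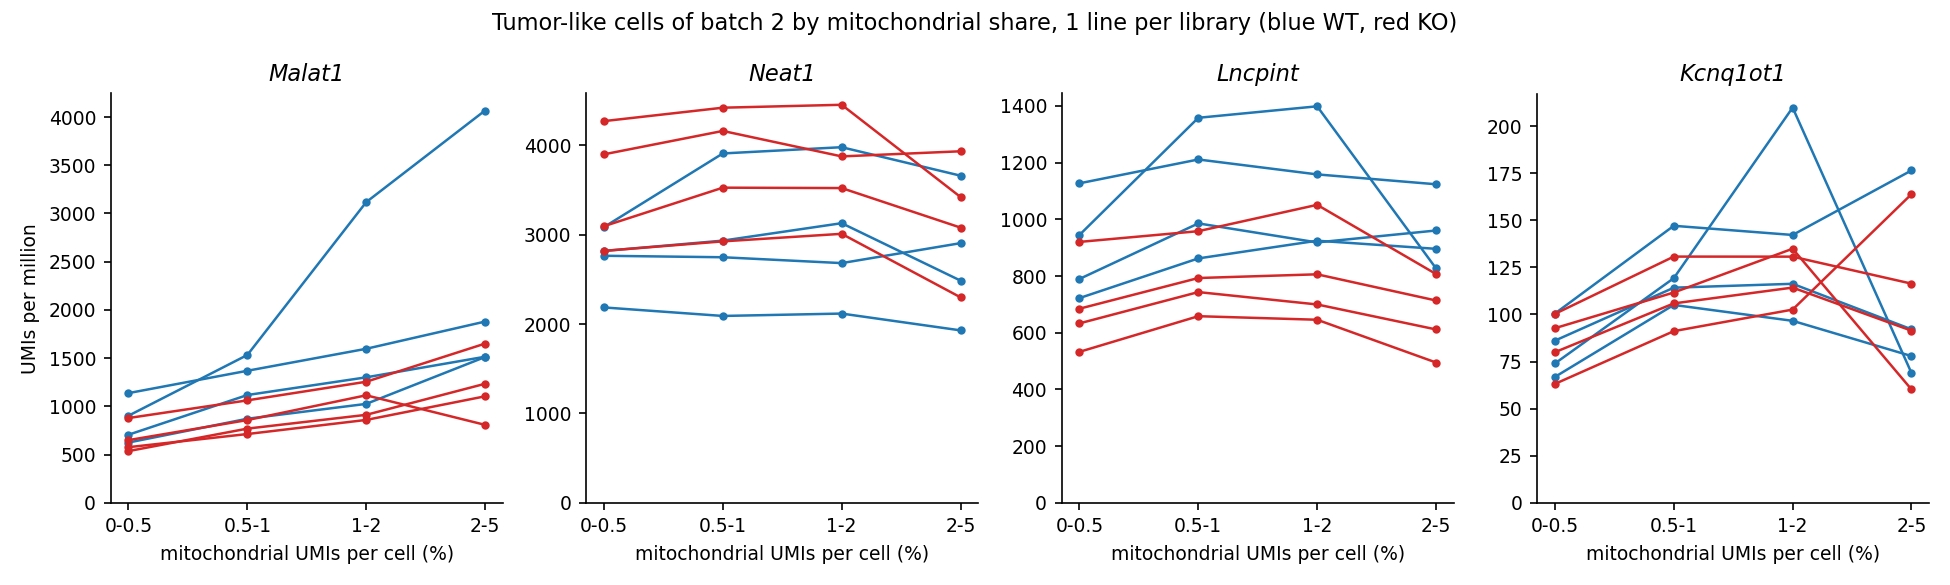
The panels plot Malat1, Neat1, Lncpint and Kcnq1ot1 in CPM in tumor-like cells of the 8 libraries of batch 2, by the percent of mitochondrial UMIs in the cell, 1 line per library, blue for WT and red for KO. The line of Malat1 that reaches 4067 is WT 4, and the lines of Neat1 stay between 1930 and 4455.

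Batch 1 had no such order. Its tumor-like cells had 5661 and 2150 CPM of Malat1 below 0.5%, 19417 and 6370 CPM at 0.5 to 1%, in 42 and 25 cells, and 4538 and 4722 CPM at 2 to 5%. The barcodes just outside the limit of 10% mitochondrial UMIs, 63 of them at 10 to 20% in batch 1, had 18061 and 18291 CPM of Malat1, against 5925 and 8261 CPM in barcodes at 5 to 10%. In batch 2 the limit removed 0 to 3 barcodes per library.

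Cell classes are compared within libraries, for classes of at least 10 cells. In the sums over whole libraries above, fewer cells of a type and less RNA per cell cannot be told apart, and the levels that follow are given as CPM of that class. Free and mixed RNA also reaches every class. The summed tumor markers in myeloid-like and T-like cells were 2.98 to 5.34% of their level in tumor-like cells in batch 1. In batch 2 they were 18.1 to 37.8% in myeloid-like, 10.7 to 56.0% in T-like, 10.3 to 21.4% in stromal-like and 7.68 to 18.4% in epithelial-like cells.

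Malat1 was lower in tumor-like than in myeloid-like, T-like and stromal-like cells. In batch 1 these had 4773 and 4516 CPM in WT and KO, T-like cells 8580 and 9742 CPM, myeloid-like cells 10131 and 13842 CPM, B-like cells 12521 and 13843 CPM and dendritic-like cells 15815 and 12452 CPM. In batch 2 tumor-like cells had 641 to 1269 CPM, T-like 1114 to 1872 CPM, stromal-like 1981 to 3873 CPM and myeloid-like 2506 to 4016 CPM. The tumor-like level was below the myeloid-like and the T-like level in 10 of 10 libraries and below the stromal-like level in 9 of 9. Endothelial-like cells, with 3 to 32 UMIs of Malat1 a library, had 441 to 3497 CPM in batch 2 and lay above tumor-like cells in 3 of 6 libraries and below them in the other 3.

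The myeloid-like level of Malat1 was a median 3.53 times the tumor-like level of the same library and 1.63 times the T-like level, above the latter in 10 of 10. The order of myeloid-like and stromal-like cells was not fixed, the former being higher in 6 of 9 libraries. In batch 2 the myeloid-like cells lay above the near-empty barcodes with their 735 to 1112 CPM, a range that tumor-like cells overlapped. Myeloid-like cells were shallower, with median UMIs of 328 to 365 against 596 to 1225 in tumor-like cells of batch 2, and the part of depth was not tested.

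Neat1 was highest in epithelial-like cells and lowest in lymphocytes. Epithelial-like cells had 4846, 8251, 5725, 5519, 10494 and 7434.5 CPM in WT 4, WT 5, KO 1, KO 2+3, KO 4 and KO 5+6, the libraries with at least 10 such cells. That was above the tumor-like, myeloid-like, T-like and stromal-like level in 6 of 6 libraries, by a median 2.07, 2.97, 11.0 and 2.18 times. It was also above the endothelial-like level in 5 of 5.

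T-like cells had 176 and 201.3 CPM of Neat1 in batch 1 and 335 to 1089 CPM in batch 2. Tumor-like cells were above them in 10 of 10 libraries, by a median 4.54 times, and myeloid-like cells in 10 of 10, by a median 3.15 times. Within batch 2, KO 2+3, with the most T-like cells (483) and the lowest tumor marker level in them, had the lowest value, 335 CPM. B-like cells of batch 1 had 1 and 5 UMIs of Neat1. Myeloid-like cells of batch 1 had 494 and 599 CPM, and those of batch 2 had 1544 to 3487 CPM.

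Lncpint was higher in lymphocytes than in myeloid-like cells. In batch 1 B-like cells had 582 and 750 CPM from 19 and 20 UMIs, T-like cells 469 and 418 CPM, tumor-like cells 269 and 240 CPM and myeloid-like cells 180 and 163 CPM. In batch 2 T-like cells had 689 to 1287 CPM, tumor-like cells 593 to 1155 CPM and myeloid-like cells 461 to 814 CPM. T-like exceeded myeloid-like cells in 10 of 10 libraries, by a median 1.91 times, and tumor-like exceeded myeloid-like cells in 10 of 10, by 1.49 times. T-like and tumor-like cells were less apart, the former higher in 8 of 10.

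Kcnq1ot1 was mainly counted in tumor-like cells, which held 6025 of its 6631 UMIs, 90.9%, and 87.6% of all UMIs. They had 102 and 114 CPM in batch 1, where myeloid-like cells had 8.66 and 17.1 CPM. In batch 2 they had 74.8 to 129 CPM, and myeloid-like cells 14.9 to 134 CPM from 1 to 8 UMIs. The tumor-like level was above the myeloid-like level in 9 of 10 libraries, and the exception, WT 4, rests on 2 UMIs. Stromal-like cells with 0 to 168 CPM and T-like cells with 0 to 147 CPM overlapped the tumor-like range.

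Meg3 marked stromal-like cells. These were 0.859% of the cells and held 199 of the 246 UMIs of Meg3, 80.9%. Stromal-like cells had 264 CPM in WT of batch 1, 606, 924, 1010 and 749 CPM in WT 1, 3, 4 and 5, and 517, 346, 965 and 229 CPM in KO 1, 2+3, 4 and 5+6, from 8 to 33 UMIs each. Tumor-like cells had 0 to 0.785 CPM. Stromal-like cells were above tumor-like cells in 9 of 9 libraries. No test is given, because clusters and levels come from the same cells.

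Outside these cells Meg3 was nearly absent. Myeloid-like cells had 2 UMIs, T-like cells 1 and epithelial-like cells 1 in all libraries. Endothelial-like cells had 4 UMIs, all in the 13 cells of KO 2+3. In batch 1, 0 UMIs were found in myeloid-like, T-like, dendritic-like and B-like cells. A count of 0 allows up to 1.52 CPM in the myeloid-like, 14.0 CPM in the T-like, 24.1 CPM in the dendritic-like and 50.6 CPM in the B-like cells, for counting error only.

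**Figure D4:**
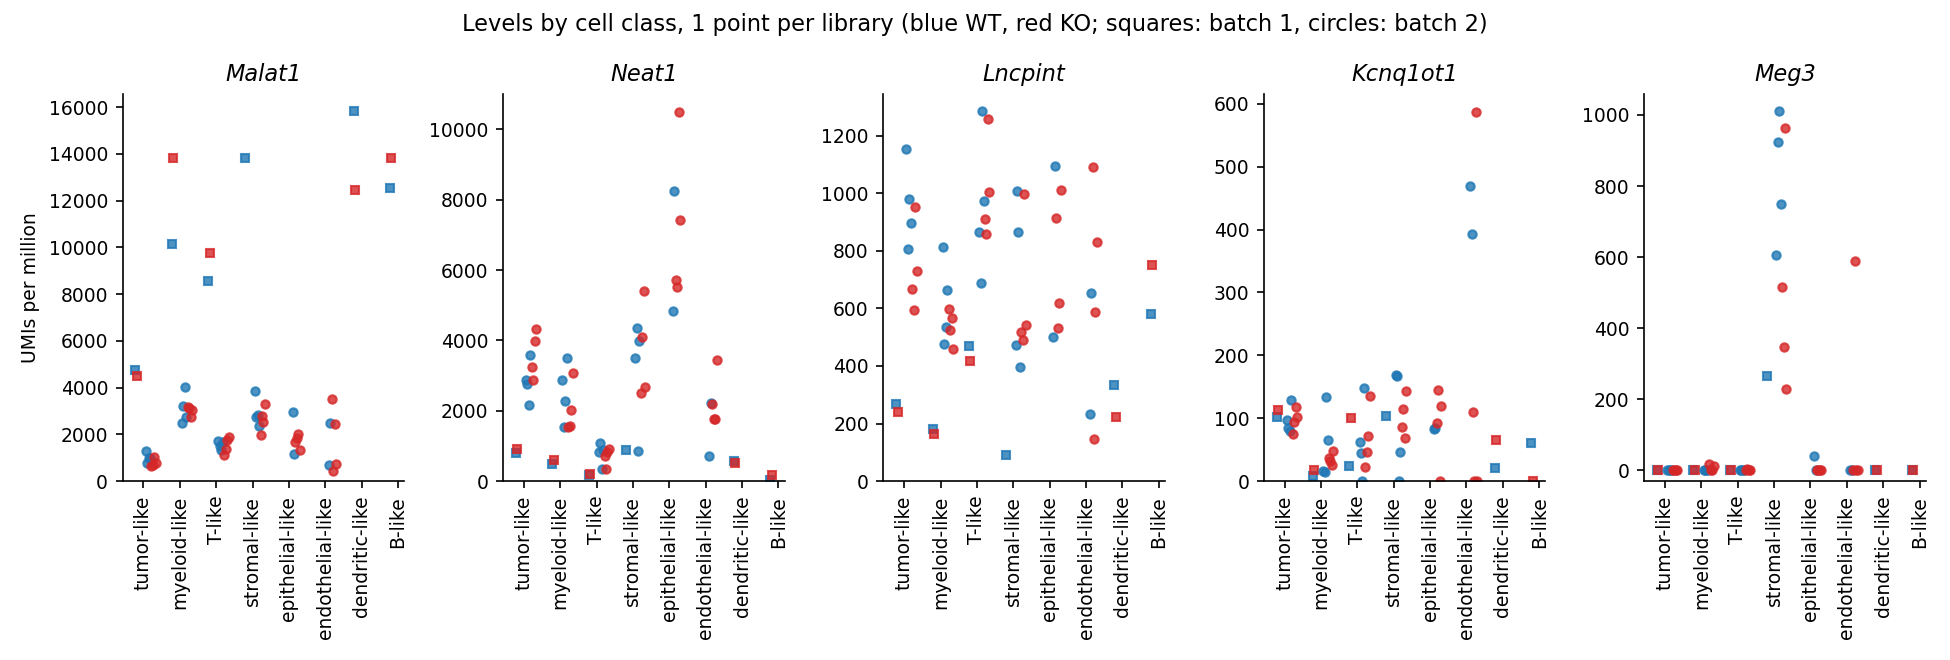
Each panel plots 1 RNA in CPM against cell class, 1 point per library with at least 10 cells of the class, squares for batch 1, circles for batch 2, blue for WT and red for KO. Meg3 stands at 229 to 1010 in stromal-like cells of batch 2 with 1 further point at 588 in endothelial-like cells, and Neat1 at 4846 to 10494 in epithelial-like cells.

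The gap between batches held within classes. Each of these classes joined clusters that came almost wholly from 1 batch, so kinds of cell within a class and batch cannot be told apart. Of the 1177 tumor-like cells of batch 1, 1169 were in a cluster of their own. Malat1 in batch 1 was 5.18 times the batch 2 mean in tumor-like cells, 3.897 times in myeloid-like, 5.93 times in T-like and 4.93 times in stromal-like cells. Neat1 in batch 2 was 3.77, 4.21, 3.96 and 3.87 times the batch 1 mean in the same classes. Lncpint was 3.33, 3.39, 2.21 and 7.19 times higher in batch 2, the last against 8 UMIs in a single library of batch 1. The gap of these 3 RNAs had the same direction in each of these classes. Kcnq1ot1 was 1.11 times higher in batch 1 in tumor-like cells and 3.61 times higher in batch 2 in myeloid-like cells, the latter from 1 to 8 UMIs a library of batch 2 and beside the higher tumor marker level there. Meg3 in stromal-like cells was 2.53 times higher in batch 2, against 23 UMIs in a single library of batch 1. The part of the tumor markers in these differences was not tested.

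Tumor-like cells were not uniform. Batch 2 had 8 tumor-like clusters, found without the members. The cluster of 6673 cells with the most Actb, a median 20.3% of UMIs over libraries, had the lowest Malat1 in 8 of 8 libraries, 158 to 467 CPM. It also had the lowest Lncpint in 8 of 8, 336 to 616 CPM, and the lowest Kcnq1ot1 in 8 of 8, 32.3 to 47.6 CPM. Its Neat1, 1600 to 3312 CPM, was the lowest in 2 of 8.

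The largest cluster, of 11156 cells with 6.42% Actb, had 1033 to 1509 CPM of Malat1, the highest Lncpint in 7 of 8 libraries at 928 to 1531 CPM, and 93.8 to 191 CPM of Kcnq1ot1. A cluster of 8010 cells had the highest Neat1 in 6 of 8 libraries, 2587 to 5442 CPM, with a Malat1 of 526 to 1026 CPM. Median UMIs were 819 in the first of these clusters, 430 in the largest and 729 in the third. The 3 clusters with the largest Actb shares (medians of 20.3, 15.8 and 12.5%) had the lowest medians of Malat1, 244, 530 and 699 CPM, in that order. The last of them was the one highest in Neat1, and the part of Actb in this was not tested.

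The genes closest to each member over the 8 named classes were found by Pearson's correlation across classes of log2(mean CPM + 20), the mean taken over libraries, among 6993 genes that reached 50 CPM in a class. This describes 8 points that share libraries, depth and cells. Cells named B-like and dendritic-like came from batch 1 alone and those named epithelial-like from batch 2 alone. Class and batch thus cannot be told apart in it. Clusters mainly of batch 2 with 4 of 6 B markers and 6 of 8 dendritic markers stayed unnamed, with tumor markers at 83.7 and 66.7% of the tumor level. The closest to Malat1 were Scand1 (r = 0.97), Bloc1s1 (r = 0.96) and Ly6a (r = 0.96), and those to Neat1 were Tcf7l2 (r = 0.98), Rtn4 (r = 0.97) and Nfic (r = 0.97). Lncpint was closest to Ddx10 (r = 0.98), Wdr33 (r = 0.97) and Phc3 (r = 0.96), and Kcnq1ot1 to Zhx3 (r = 0.99), Flywch1 (r = 0.98) and Ece1 (r = 0.97). Meg3 was closest to Aoc3 (r = 1.00), Rcn3 (r = 1.00) and C1s1 (r = 1.00), where 1 class lay far above the others.

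The effect of endothelial AGO1 deletion on these RNAs was tested with edgeR's quasi-likelihood test on UMIs summed per library, with batch in the model and Benjamini-Hochberg adjustment over all genes. No member was called. In all kept cells 0 of 12459 genes passed an adjusted p of 0.05 (0% called), 1133 had an unadjusted p under 0.05, and DESeq2 called 2. All 5 members were tested there.

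Lncpint was the member with the smallest p. In batch 2 its WT libraries had 798 to 1148 CPM and its KO libraries 601 to 951 CPM, so the groups overlapped. The log2 fold change, KO minus WT, was -0.42 (SE 0.14, 95% interval -0.70 to -0.13, unadjusted p = 0.00746 and adjusted p = 0.456 by edgeR). It was lower in KO under all 18 alternatives, with adjusted p from 0.0616 to 1.00, and none passed.

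Malat1 was lower in KO on average and Neat1 higher, and neither difference passed. Malat1 in batch 2 had 1064 ± 180 CPM in WT and 871 ± 164 CPM in KO (SD, n = 4 each). Its log2 fold change over both batches was -0.29 (SE 0.14, interval -0.59 to 0.02, adjusted p = 0.569 by edgeR). Neat1 had 2841 ± 578 CPM in WT and 3535 ± 681 CPM in KO, with a log2 fold change of 0.22 (interval -0.08 to 0.52, adjusted p = 0.680 by edgeR).

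For Kcnq1ot1 the WT libraries of batch 2 had 97.4 ± 20.6 CPM and the KO libraries 95.5 ± 18.6 CPM (SD, n = 4 each). Its log2 fold change was -0.08 (interval -0.37 to 0.21), and that of Meg3 was -0.20 (interval -0.87 to 0.47), with adjusted p of 0.905 and 0.902 by edgeR. The interval of Meg3 included a difference of the size seen for Lncpint, and that of Kcnq1ot1 did not.

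In tumor-like cells, which carry intact Ago1 in both groups, the values were alike. These cells held 87.6% of all UMIs in kept cells, 89.4% of those of Lncpint and 70.4% of those of Malat1. Most counts are thus common to both comparisons, and their likeness is no second result. The test called 0 of 11640 genes (0% called, 698 at unadjusted p under 0.05, DESeq2 1). Lncpint had a log2 fold change of -0.41 (interval -0.70 to -0.13, unadjusted p = 0.00697) and Malat1 one of -0.39 (interval -0.70 to -0.08, unadjusted p = 0.0169), both with an adjusted p of 0.809 by edgeR. Neat1 was at 0.25 (interval -0.05 to 0.55) and Kcnq1ot1 at -0.05 (interval -0.34 to 0.24), and Meg3 with 23 UMIs did not pass the filter on low counts. Malat1 in tumor-like cells of batch 2 was 793 to 1269 CPM in WT and 641 to 1032 CPM in KO, overlapping the near-empty barcodes in both.

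The host cells showed no call either. In myeloid-like cells 0 of 1495 genes passed (0% called, 86 at unadjusted p under 0.05, DESeq2 0). Malat1 had a log2 fold change of 0.10 (interval -0.25 to 0.45), Neat1 one of -0.20 (interval -0.59 to 0.20) and Lncpint one of -0.24 (interval -0.57 to 0.10), the 3 members that passed the filter. In T-like cells 0 of 886 passed (0% called, 52 at unadjusted p under 0.05, DESeq2 0). There Malat1 was at -0.05 (interval -0.50 to 0.40), Neat1 at -0.31 (interval -0.84 to 0.22) and Lncpint at -0.0026 (interval -0.42 to 0.42), and Kcnq1ot1 and Meg3 did not pass the filter.

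The count of calls in near-empty barcodes moved with several choices. With all libraries 0 of 13815 genes passed (0% called), although 4316 had an unadjusted p under 0.05, and DESeq2 called 0. Without WT 3, 6932 of 13825 genes passed (50.1% called), with no filter on low counts 1427, and with batch 2 alone 774. Lncpint was at -0.49 (interval -0.93 to -0.05, adjusted p = 0.129 by edgeR) with WT 3 and at -0.62 (adjusted p = 0.0071 by edgeR) without it, the only one of 17 alternatives in which a member passed, with adjusted p from 0.0071 to 0.460 over them. The other members were at -0.36 for Malat1, -0.24 for Neat1, 0.03 for Kcnq1ot1 and 0.25 for Meg3, and none of these passed with or without WT 3.

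**Figure D5:**
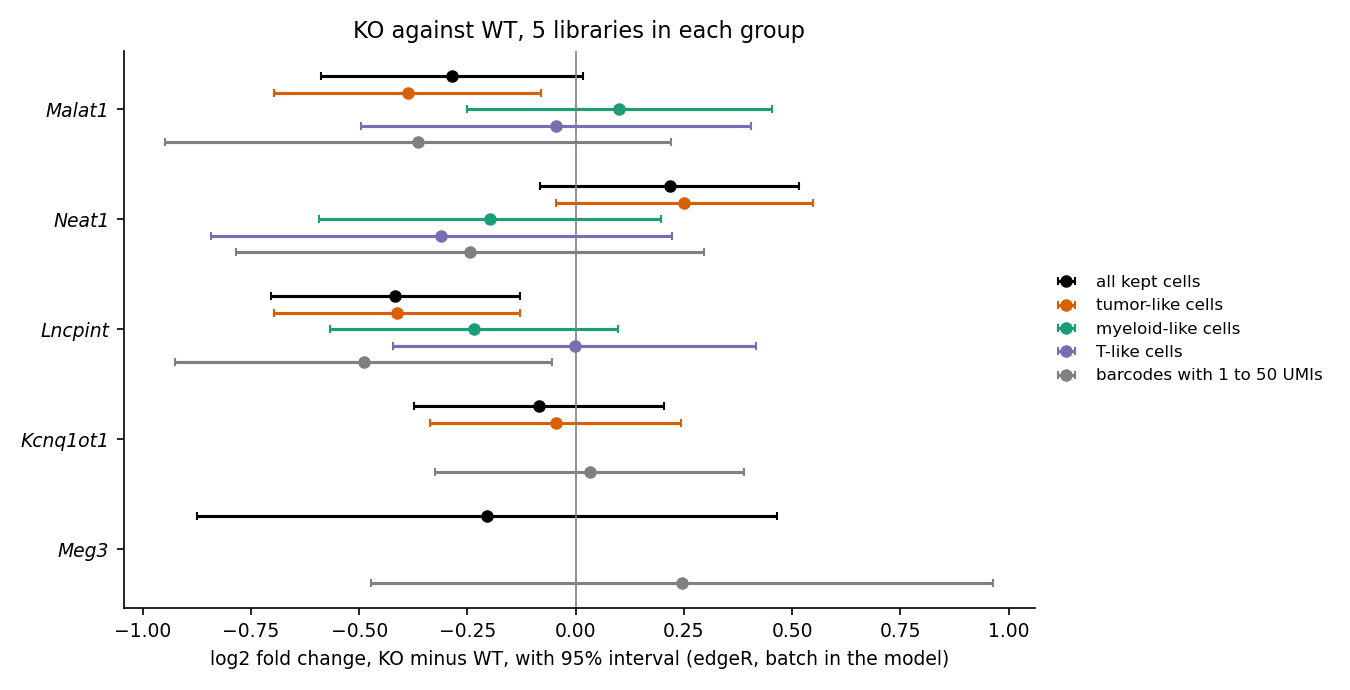
The plot gives the log2 fold change, KO minus WT, with its 95% interval from edgeR for each member tested in all kept cells, tumor-like, myeloid-like and T-like cells and barcodes with 1 to 50 UMIs, with 5 libraries in each group. The intervals of Lncpint in all kept cells, tumor-like cells and barcodes with 1 to 50 UMIs and that of Malat1 in tumor-like cells lie below 0, and no member passed the adjusted p of 0.05.

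Whether the genotype effect differed between classes was tested over 3873 genes in a common model. Malat1 differed by 0.49 between myeloid-like and tumor-like cells (unadjusted p = 0.0106, adjusted p = 0.791 by edgeR), where 2 genes passed (0.0516% called). Lncpint differed by 0.54 between T-like and tumor-like cells (unadjusted p = 0.00974, adjusted p = 0.496 by edgeR), where 4 genes passed (0.103% called). Between T-like and myeloid-like cells 1 gene passed (0.0258% called), and the members had adjusted p of at least 0.960 by edgeR. No member passed in any of these.

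The mRNAs of proteins that work with these RNAs gave no call in any comparison, and no protein was measured. In all kept cells the tested members numbered 13 of 13 paraspeckle proteins (led in UMIs by Sfpq and Hnrnpk), with a median log2 fold change of 0.03, and 21 of 21 nuclear speckle and splicing proteins (Srrm2, Srsf2), with -0.01. All 8 Polycomb and G9a partners (Jarid2, Rbbp4) were tested, with a median of -0.11 and 1 at unadjusted p under 0.05. Over all genes tested the median was -0.01, and 9.09% had an unadjusted p under 0.05.

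Genes near the imprinted members and Lncpint gave no call either. In all kept cells 6 of 10 genes of the Kcnq1 imprinted domain (Nap1l4, Kcnq1) had a median of 0.07, and the 1 gene tested of the Dlk1-Meg3 domain, Wars, had 0.11. The 10 genes of p53, its targets and Mkln1, the gene beside Lncpint, had a median of 0.03. Among other RNAs, 9 of 11 other nuclear noncoding RNAs measured had a median of 0.03 and 4 cytoplasmic or snoRNA-host RNAs 0.03. The 13 mitochondrial mRNAs had 0.06, and 89 of 95 mRNAs listed as ribosomal by name had 0.03.

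Near-empty barcodes were the exception in size, though not in calls. There the mRNAs of paraspeckle proteins had a median of -0.51 with 7 of 12 tested at unadjusted p under 0.05 by edgeR. Those of speckle and splicing proteins had -0.52 with 12 of 21, and ribosomal protein mRNAs -0.84 with 78 of 90. Mitochondrial mRNAs had a median of -0.13 with 0 of 13. Over all genes the median was 0.03, and 31.2% had an unadjusted p under 0.05. Lncpint, at -0.49, lay close to the medians of the mRNAs of these nuclear proteins there. Without the TMM scaling the median of all genes in these barcodes was 0.27, and Lncpint was at -0.25.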

How the data were processed

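Per the labels, 10 droplet libraries (single cell 3′ v3) of E0771 tumors were made, 5 WT and 5 KO. The deposited values are raw counts of UMIs for 31053 genes and all barcodes, which the authors made with Cell Ranger 7.1.0 on mm10. Whether introns were counted is not given in the sources used here. The study's integration, annotation and tests over cells were not used.

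Barcodes with 200 to 7000 genes and at most 10% mt- UMIs were kept, and barcodes with 1 to 50 UMIs were taken as near-empty. Cells were clustered with scanpy 1.11.5 and leidenalg 0.10.2 on 2000 variable genes, 30 principal components and 15 neighbours at resolution 1. Classes were named where at least 3 markers were 2-fold higher (20 CPM added) and in 2% of cells, within the 100 leading genes, with a lead of 25 percentage points over the next marker list. A non-tumor name needed tumor markers under 60% of the tumor level. These thresholds were set after the clusters were seen and before genotypes were compared. Doublets were not removed, and unnamed cells may hold them.

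CPM is UMIs per 1000000 of the summed UMIs. KO and WT were compared by edgeR 4.0.16 (filterByExpr, TMM, quasi-likelihood, batch in the model) over all genes, with the library as the sample. The spread is that between libraries, and 2 KO libraries are pools. The test was tried on simulated counts first. DESeq2 1.42.0, other filters and scalings, batch 2 alone, libraries left out and other clusterings were alternatives. The floor for a count of 0 is 3 UMIs.

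The members and lists were chosen with earlier results of these data known. Named were the members, at most 2 genes of a list by UMIs, and the 3 genes closest to each member. Sequences are from GENCODE vM21 transcripts, and all 5 members matched by gene ID. The list of genes beside Malat1 and Neat1 is not reported here.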

Additional observations from a re-analysis of the deposited data

Results flagged for a closer look

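Of 68 groups of 4 or 5 libraries examined for a library far from the others, 6 held one, where chance gives about 1 in 20. In 5 of them the library was the one of batch 1, in groups that join both batches, so these 5 restate the batch gap, which was known when the members were chosen, and are no test of it. Malat1 in kept cells was 5757 CPM in WT of batch 1 against 869 to 1306 in the other WT libraries, and 6414 CPM in KO of batch 1 against 713 to 1101 in the other KO libraries. In near-empty barcodes of KO of batch 1, Malat1 was 2223 CPM against 735 to 904, Lncpint 52.2 CPM against 211 to 271, and Kcnq1ot1 28.3 CPM against 61.6 to 70.9 in the other KO libraries. Meg3 in T-like cells of KO 2+3 was 4.65 CPM, from 1 UMI, against 0 in the other KO libraries.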

How the results depend on the processing

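Over 444 alternative values, 398 kept their direction and side of the threshold, or their count within 1.5 times. The members gave 355 of these values and 325 of those kept, and for the rest the cause was not tested. For genes called, no filter on low counts gave 241 in all kept cells, 41 in tumor-like, 13 in myeloid-like and 1 in T-like cells and 1427 in near-empty barcodes. DESeq2 gave 2 in all kept cells and 1 in tumor-like cells, batch 2 alone gave 2 in myeloid-like cells and 774 in near-empty barcodes, and Leiden resolution 0.5 gave 1 in myeloid-like cells. Leaving out 1 library gave 0 to 1 calls in all kept cells (1 without KO 4), 0 to 3 in myeloid-like cells (2 without either library of batch 1, 3 without WT 4) and 0 to 6932 in near-empty barcodes (6932 without WT 3).

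Deviations of samples with the same replicate number in batch 2 had correlations of -0.22, 0.19, -0.25 and 0.19 in all kept cells. Pairs with unlike numbers had -0.17 to 0.34. So few pairs of mixed sign cannot tell whether such samples share more than a number. The replicate block in place of batch gave 2 calls in myeloid-like cells and changed no other count, and no member passed under it.

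Without TMM, the log2 fold change of Kcnq1ot1 turned to 0.0019 in all kept cells and 0.022 in tumor-like cells, and in T-like cells those of Malat1 and Lncpint to 0.00049 and 0.033. With no filter, Malat1 and Lncpint in T-like cells were at 0.22 and 0.28, and Kcnq1ot1 in near-empty barcodes at -0.075. With batch 2 alone, Lncpint in T-like cells was at 0.11 and Kcnq1ot1 in near-empty barcodes at -0.061. Lncpint in T-like cells was also at 0.0051 with Actb left out and at 0.081 without the pooled libraries. At Leiden resolution 0.5 Neat1 in myeloid-like cells was at 0.081, and Malat1 and Lncpint in T-like cells at 0.0053 and 0.12.

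Leaving out 1 library, Kcnq1ot1 ranged from -0.15 to 0.027 in all kept cells, from -0.11 to 0.079 in tumor-like cells and from -0.057 to 0.077 in near-empty barcodes. Meg3 ranged from -0.50 to 0.018 in all kept cells (above 0 only without WT 3) and from -0.012 to 0.55 in near-empty barcodes. In T-like cells Malat1 ranged from -0.11 to 0.033 and Lncpint from -0.11 to 0.12. In near-empty barcodes Neat1 ranged from -0.40 to 0.0072 and Lncpint from -0.63 to -0.43. Depth limits the rarer members: Meg3 rests on 246 UMIs, and Kcnq1ot1 in myeloid-like cells on 52.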

Other observations

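The 4959 unnamed cells had 926 to 1442 CPM of Malat1 in batch 2, above the tumor-like cells of the same library in 8 of 8, with 2029 to 3917 CPM of Neat1 and 615 to 1159 CPM of Lncpint. They held 16 of the 246 UMIs of Meg3. Endothelial-like cells, the only class in which AGO1 is deleted by design, were 6 in each library of batch 1 and too few there for the class comparison. Malat1 was 11252 CPM in those of WT and 21203 CPM in those of KO, from 241 and 562 UMIs. In batch 2 the endothelial-like cells of the 6 libraries with at least 10 had 441 to 3497 CPM of Malat1 and 703 to 3447 CPM of Neat1, from 3 to 32 and 3 to 29 UMIs, and no contrast between genotypes was run on them.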
